A study of Mus musculus with 11 samples.

Results

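The adipocyte genes described here are Adipoq, Lep, Cfd, Retn, Plin1, Plin4, Cidec, Cidea, Fabp4 and Ucp1, which are 10 of the 21899 mouse genes listed in an RNA-seq table of the airway. They were chosen by their known role in white or brown fat, with their values in these same libraries already in view, as a reading of how much fat the dissected tissue held. Differences of these genes between the groups are therefore given as a description, with no test. The table holds 3 PBS libraries, 4 OVA/LPS/Vehicle libraries (labelled 12, 34, 56 and 78) and 4 OVA/LPS/GGsTop libraries, all from young adult male wild-type BALB/c mice. Mice of both OVA/LPS groups were sensitised with ovalbumin (OVA) in alum and then received OVA and the bacterial product LPS through the nose, followed by vehicle or by GGsTop, an inhibitor of γ-glutamyl transferase, given into the trachea. PBS mice were not sensitised and were given PBS alone. The sources used here do not say whether the labels 12 to 78 mark pooled animals, and nothing says that the libraries of a group came from separate animals, so that p-values measure the spread between these libraries. The sample labels name the trachea, whereas the methods of the study describe larger airways pulled free from the lung parenchyma without the trachea. The club cell gene Scgb1a1 was listed between 26145 and 47905 FPKM, so that airway epithelium was present in every library. FPKM are fragments scaled to the exon length of the gene and to the size of the library, and a difference is given on the log2(FPKM + 1) scale, which understates changes of low genes. By the size of their smallest steps, libraries held about 14513000 to 18632000 fragments.

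White adipocytes store triglyceride in a large lipid droplet and secrete hormones, whereas brown adipocytes hold many small droplets and burn fat for heat through uncoupling protein 1 in their mitochondria. The lung parenchyma holds few adipocytes, and the nearest depots of a dissected mouse airway lie in the mediastinum, around the heart and great vessels, where mice have both white and brown fat. In a bulk tissue, fewer fat cells and less RNA per fat cell cannot be told apart.

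Adipoq lies at chr16:23146536-23158028, Lep at chr6:29060220-29073877 and Ucp1 at chr8:83290352-83298452 of GRCm38 (GENCODE M21), each a protein-coding gene on the plus strand. Exons of Plin4 overlap those of Hdgfl2 by 17 bases, and no other gene of the 10 shares exon bases with a neighbour. Because most of the 10 genes varied together across libraries, the 250 bases before the RefSeq start (GRCm38.p6) were searched on both strands for the letters of 4 motifs. A window was found for 8 of the 10 genes. The 120 bases next to the start are shown for the hormones of white fat and for the brown fat gene that parted most from Adipoq, with every motif match in capitals.
Lep, chr6:29060101-29060220, plus strand: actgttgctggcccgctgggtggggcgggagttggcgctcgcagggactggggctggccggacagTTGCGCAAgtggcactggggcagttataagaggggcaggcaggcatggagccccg
Ucp1, chr8:83290228-83290347, plus strand: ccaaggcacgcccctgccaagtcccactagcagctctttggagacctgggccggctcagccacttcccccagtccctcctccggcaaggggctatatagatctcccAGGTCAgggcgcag
Adipoq, chr16:23146416-23146535, plus strand: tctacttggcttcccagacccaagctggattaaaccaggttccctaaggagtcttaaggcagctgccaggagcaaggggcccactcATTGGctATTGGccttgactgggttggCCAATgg
The palindrome TTGCGCAA, which C/EBP factors of the adipocyte programme can bind, stood in the Lep window and in no other window of the 8, and in 0.164% of all 32851 windows. The nuclear receptor half-site AGGTCA was found in the window of Ucp1 and in 14.0% of all windows. The CCAAT box, read as CCAAT or ATTGG, matched 3 times in the Adipoq window and also in that of Plin4, against 33.8% of all windows with a match. The letters TATAAA were in 12.4% of all windows and in none of the 8. No match overlapped another, and the 3 genes shared no motif in these windows.

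Adipoq encodes adiponectin, the hormone most specific to fat cells. Adipoq was listed at 8.56, 33.2 and 1.63 FPKM in PBS 1 to 3, at 68.5, 22.1, 33.7 and 27.9 FPKM in OVA/LPS/Vehicle 12 to 78, and at 1.78, 19.6, 0.688 and 28.7 FPKM in OVA/LPS/GGsTop 1 to 4. The OVA/LPS/Vehicle libraries were all above 20 FPKM, whereas PBS 3 and OVA/LPS/GGsTop 1 and 3 were below 2 FPKM and PBS 1 lay between. The highest library was 20.3 times the lowest in the PBS group and 41.6 times the lowest in the OVA/LPS/GGsTop group, but 3.10 times in the OVA/LPS/Vehicle group.

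Plin1 encodes perilipin 1, the coat protein of the fat cell's lipid droplet, and followed Adipoq closely. Plin1 levels were 5.43, 17.4 and 0.646 FPKM in PBS, 30.6, 9.81, 14.9 and 12.5 FPKM in OVA/LPS/Vehicle and 1.36, 10.4, 0.545 and 17.3 FPKM in OVA/LPS/GGsTop. Cidea, a droplet protein typical of brown fat, was at 19.5, 45.2 and 2.12 FPKM, at 119, 36.8, 60.9 and 49.4 FPKM, and at 6.08, 39.6, 2.44 and 36.3 FPKM in the same order. PBS 3, OVA/LPS/GGsTop 1 and OVA/LPS/GGsTop 3 were the lowest libraries for both genes, as they were for 7 of the 10 genes. Cidec, which promotes the fusion of droplets, spanned 6.44 to 47.9 FPKM and Fabp4, a fatty acid carrier of fat cells that capillary endothelium and macrophages also make, spanned 4.08 to 307 FPKM. Plin4, a droplet coat protein also made in heart and skeletal muscle, varied least and kept 9.33 FPKM in OVA/LPS/GGsTop 1, where Adipoq was at 1.78 FPKM.

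Ucp1, the uncoupling protein that defines brown fat, had the widest range. Ucp1 was at 57.4, 39.4 and 1.38 FPKM in the PBS libraries, at 363, 74.2, 138 and 94.8 FPKM in the OVA/LPS/Vehicle libraries and at 0, 54.7, 0.232 and 24.7 FPKM in the OVA/LPS/GGsTop libraries. All 4 OVA/LPS/Vehicle libraries lay above every other library. The 0 of OVA/LPS/GGsTop 1 allows up to 0.122 FPKM, the level that 3 fragments would give, and the value of OVA/LPS/GGsTop 3 rested on 6 fragments. Such limits cover counting error only.

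The secreted products did not all follow the same order. Lep, the satiety hormone leptin, was the least abundant of the 10 genes, with 0.0594, 1.48 and 0 FPKM in the PBS libraries, 1.54, 0.887, 1.72 and 0.678 FPKM in the OVA/LPS/Vehicle libraries and 0.158, 0.555, 0.0567 and 3.55 FPKM in the OVA/LPS/GGsTop libraries. The 0 in PBS 3 allows up to 0.0480 FPKM by 3 fragments, and PBS 1 and OVA/LPS/GGsTop 3 held 3 fragments each. Cfd, or adipsin, the complement protease of fat, was the most abundant of the 10 by its mean of 109 FPKM and ranged from 16.3 FPKM in OVA/LPS/GGsTop 3 to 260 FPKM in OVA/LPS/GGsTop 4. Retn, which encodes resistin, ranged from 0.602 to 16.0 FPKM between the same libraries. Lep, Cfd, Retn and Plin4 were highest in OVA/LPS/GGsTop 4, whereas the other 6 genes were highest in OVA/LPS/Vehicle 12. Retn and Retnla belong to a family of similar genes, and how reads shared by such genes were counted is not given in the sources used here.

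**Figure D1:**
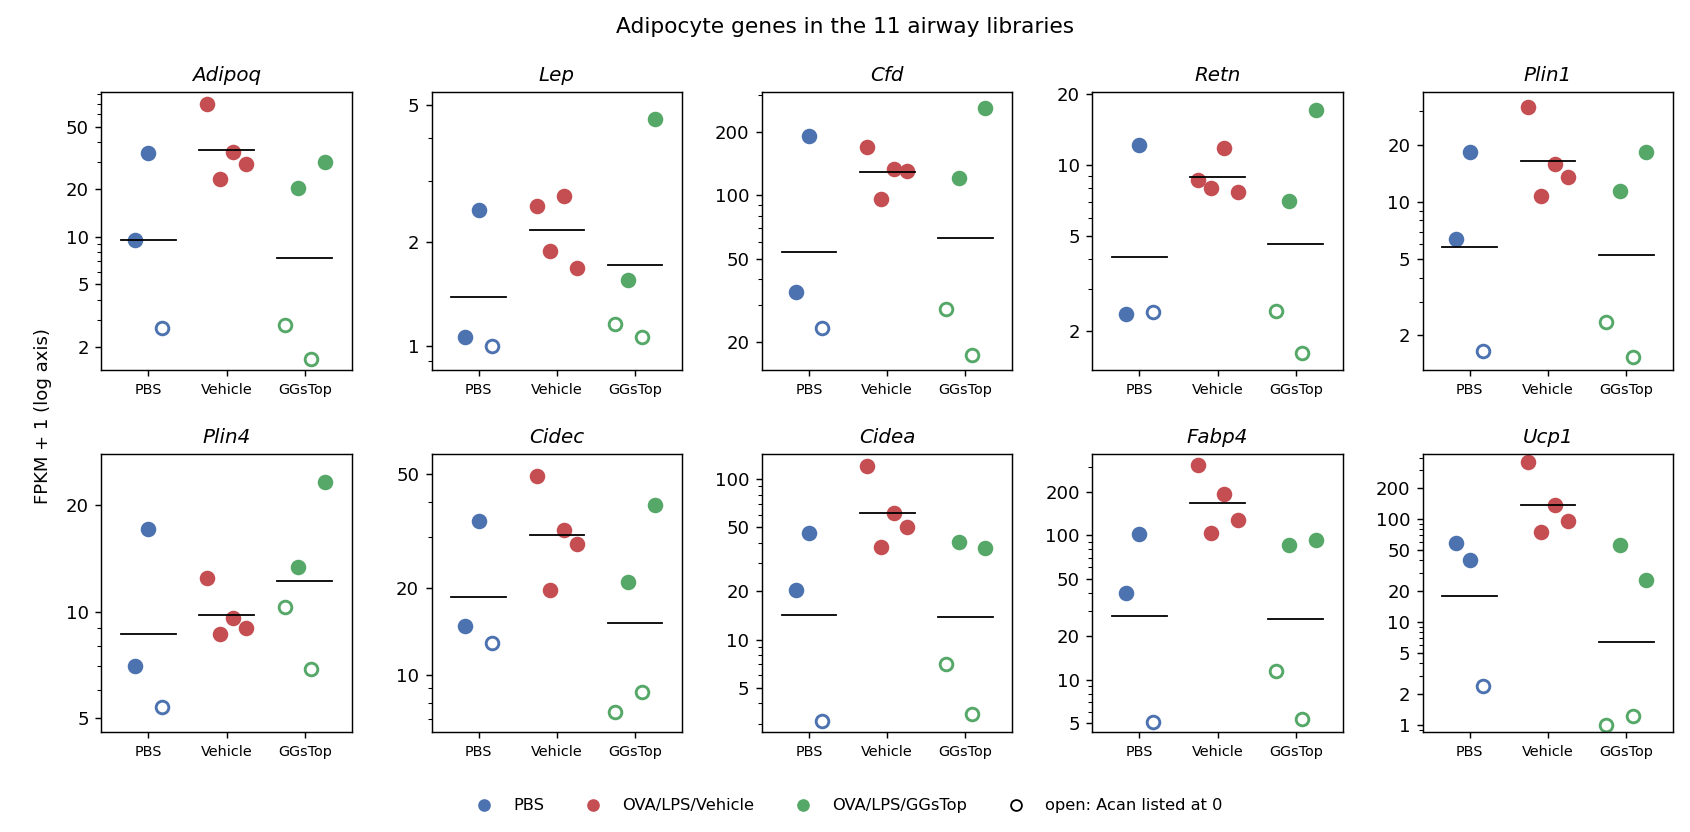
Level of each of the 10 adipocyte genes, as FPKM + 1 on a log axis, in all 11 libraries by group, with 1 point per library in label order and a line at the mean of log2(FPKM + 1). Open points are the 3 libraries in which the cartilage gene Acan was listed at 0, and they are the lowest libraries for 7 of the 10 genes.

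Set against Adipoq within each library, the genes fell into those that kept a near constant ratio and those that did not. Among the 8 libraries with Acan above 0, the ratio of Plin1 to Adipoq varied 1.43-fold, that of Cidea 1.80-fold and that of Fabp4 1.85-fold. In the 4 OVA/LPS/Vehicle libraries Plin1 stood between 0.443 and 0.447 of Adipoq. The ratio of Cidec varied 2.30-fold, that of Cfd 3.69-fold, that of Plin4 4.67-fold and that of Retn 5.02-fold. The ratio varied 7.80-fold for Ucp1 and 17.8-fold for Lep, the latter with a low end in PBS 1 that rests on 3 fragments of Lep. The order of the genes depended on the measure, since over all 11 libraries the Pearson correlation of log2(FPKM + 1) with Adipoq was lowest for Plin4, at 0.618, and stood at 0.793 for Lep, 0.898 for Retn and 0.934 for Ucp1. Over all 11 libraries the ratio of Cidec ran from 0.699 to 11.3, that of Cfd from 2.45 to 23.7 and that of Retn from 0.111 to 0.875. That of Fabp4 ran from 2.50 to 6.23. Plin4 was at 5.88 FPKM in OVA/LPS/GGsTop 3, with Adipoq at 0.688 FPKM, and at 11.4 FPKM in OVA/LPS/Vehicle 12, with Adipoq at 68.5 FPKM.

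The ratio of Ucp1 to Adipoq was 6.71, 1.19 and 0.844 in the PBS libraries, 5.29, 3.35, 4.09 and 3.39 in the OVA/LPS/Vehicle libraries and 0, 2.80, 0.338 and 0.860 in the OVA/LPS/GGsTop libraries. PBS 1 had the highest share of Ucp1 with little Adipoq, and OVA/LPS/GGsTop 4 had a low share with about as much Adipoq as OVA/LPS/Vehicle 78. The ratio of Lep to Adipoq ran the other way at these ends, from 0.00694 in PBS 1 to 0.124 in OVA/LPS/GGsTop 4. Other genes enriched in brown fat followed Ucp1 in part. Otop1 was at 0.0774 and 0 FPKM in OVA/LPS/GGsTop 1 and 3, where Ucp1 was lowest. Among the 8 libraries with Acan above 0, the ratio of Cidea was also highest in PBS 1 and lowest in OVA/LPS/GGsTop 4. Cidea and Cox8b parted from Ucp1 in the libraries with least Adipoq. In OVA/LPS/GGsTop 1 and 3, where the ratio of Ucp1 was lowest, that of Cidea was highest, at 3.41 and 3.55 against 1.27 to 2.28 elsewhere. The ratio of Cox8b, a mitochondrial subunit that heart also makes, was 7.26 and 13.8 there, against 1.82 to 3.40 in the other libraries.

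**Figure D2:**
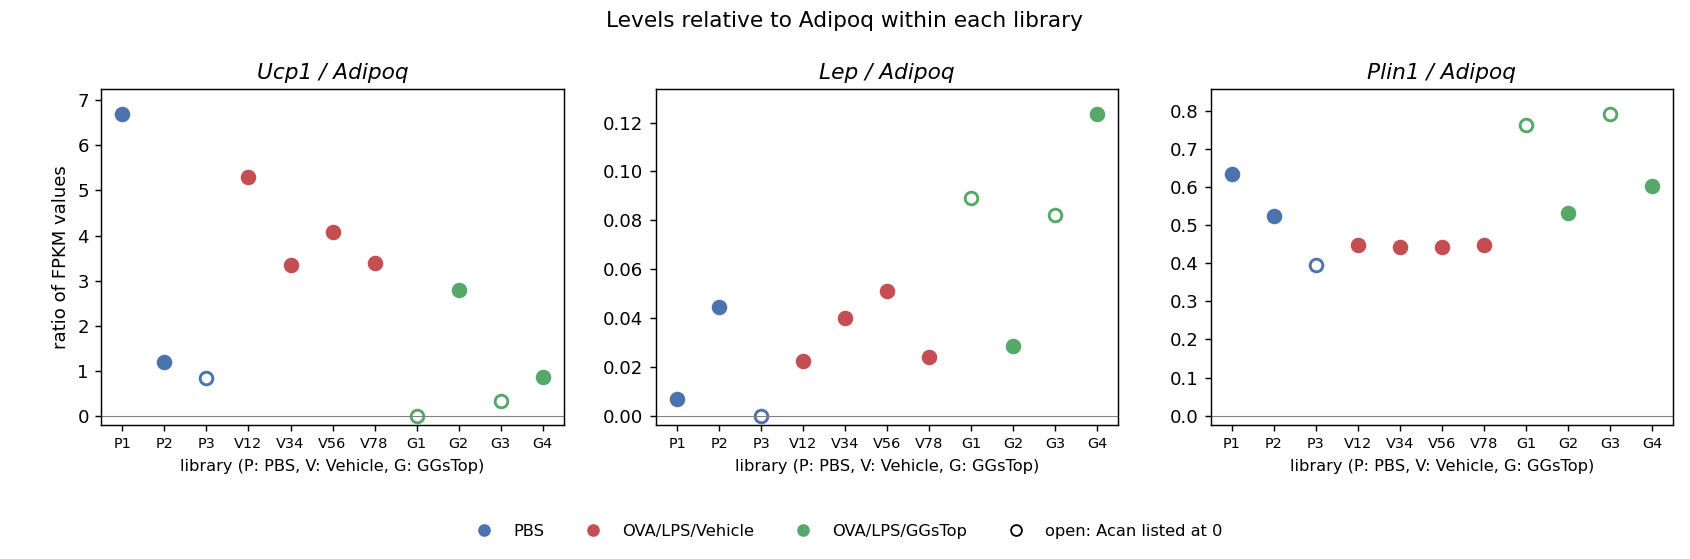
Ratio of the FPKM of Ucp1, Lep and Plin1 to that of Adipoq in each of the 11 libraries, with 1 point per library and open points where Acan was listed at 0. The ratio of Plin1 stays between 0.396 and 0.792 in all libraries, whereas that of Ucp1 spans 0 to 6.71 and that of Lep 0 to 0.124.

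The 10 genes were higher in the OVA/LPS/Vehicle group than in the PBS group, by a median of 1.39 log2 units, while the median of all 14004 genes tested was −0.01. The order of the group means, highest first, put OVA/LPS/Vehicle before PBS and OVA/LPS/GGsTop for all genes but Plin4, whose mean of log2(FPKM + 1) was highest in OVA/LPS/GGsTop. Ucp1 was higher by 2.96 (SE 1.48), Fabp4 by 2.61 (SE 1.12), Cidea by 2.10 (SE 0.99) and Adipoq by 1.91 (SE 1.04), with n = 4 and 3. The difference was 1.51 (SE 0.92) for Plin1, 0.65 (SE 0.47) for Lep and 0.18 (SE 0.42) for Plin4. The libraries of Ucp1 and Fabp4 did not overlap between the groups, as was the case for 18.7% of all genes in this direction. For Fabp4 they nearly touched, at 101.9 FPKM in PBS 2 and 102.7 FPKM in OVA/LPS/Vehicle 34.

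With GGsTop 9 of the 10 genes were lower than with vehicle. The median was −1.35, against 0.03 for all genes. This comparison shares the OVA/LPS/Vehicle libraries with the one before. The difference was −4.41 (SE 1.37) for Ucp1, −2.67 (SE 1.04) for Fabp4, −2.28 (SE 0.96) for Adipoq and −2.15 (SE 0.91) for Cidea, with n = 4 and 4. It was −1.65 (SE 0.85) for Plin1, −0.33 (SE 0.44) for Lep and 0.32 (SE 0.39) for Plin4. Ucp1 and Fabp4 again did not overlap, as did not 12.4% of all genes in this direction.

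Between OVA/LPS/GGsTop and PBS the median difference was −0.05 in the fit with no block, and 9 of the 10 genes differed by less than their SE. For all genes the median was 0.01. With the shared replicate number as a block, in which OVA/LPS/GGsTop 4 has no partner, the median of the 10 genes was −0.60. It was also −0.60 without OVA/LPS/GGsTop 4 and no block. No gene of the 10 had groups that did not overlap, whereas 7.22% of all genes did so upward and 7.54% downward. Means in these groups hide their spread, since Adipoq was 14.5 ± 16.6 FPKM (SD, n = 3) in PBS and 12.7 ± 13.7 FPKM (SD, n = 4) in OVA/LPS/GGsTop, against 38.1 ± 20.8 FPKM (SD, n = 4) in OVA/LPS/Vehicle.

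**Figure D3:**
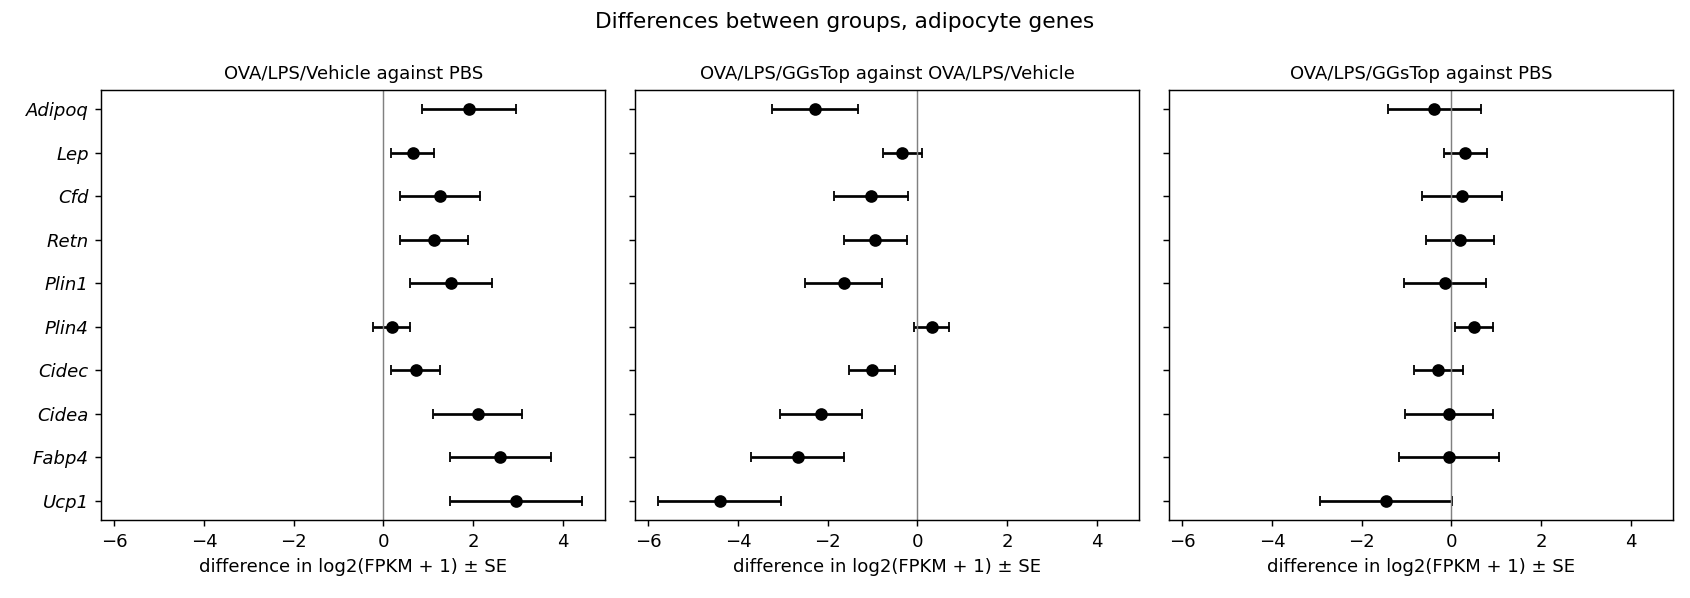
Difference in mean log2(FPKM + 1) of each adipocyte gene for the 3 comparisons of groups, as a point with its standard error from limma (3 libraries in PBS and 4 in each OVA/LPS group). Against PBS the OVA/LPS/Vehicle values run from 0.18 for Plin4 to 2.96 for Ucp1, and the error bars of 9 genes cross 0 in the comparison of OVA/LPS/GGsTop with PBS.

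The 3 libraries lowest in fat genes were also the lowest in cartilage genes. Acan, the aggrecan of cartilage, was listed at 0 in PBS 3, OVA/LPS/GGsTop 1 and OVA/LPS/GGsTop 3 and at 2.13 to 23.0 FPKM in the other 8 libraries. The 6 cartilage genes, of which Acan was the most abundant, summed to 0.691, 1.14 and 0.631 FPKM in those 3 libraries and to between 10.3 and 75.7 FPKM elsewhere, and Matn1 was likewise at 0 there. The 10 adipocyte genes summed to 49.8, 64.7 and 38.8 FPKM in the same 3 libraries and to between 185 and 1124 FPKM in the others. Without these 3 libraries, a choice made after seeing the data, the median difference of the 10 genes between OVA/LPS/Vehicle and PBS was 0.70. The median was −0.14 when GGsTop was compared with vehicle, and 0.47 when GGsTop was compared with PBS. Between the OVA/LPS groups 4 of the 10 genes were then higher with GGsTop, among them Cfd by 0.45 and Plin4 by 0.85, while Fabp4 was lower by −0.90 and Ucp1 by −1.87.

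Leaving out single libraries moved the medians in both directions. Without PBS 3 the median for OVA/LPS/Vehicle against PBS was 0.70, and without PBS 2 it was 2.26. Between the OVA/LPS groups it was −0.90 without OVA/LPS/GGsTop 3 and −1.99 without OVA/LPS/GGsTop 4. For OVA/LPS/GGsTop against PBS it was −0.81 without PBS 3 and 0.77 without PBS 2, so that its direction depended on the library left out.

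Other tissues of the chest followed fat in some libraries and not in others. The 10 cardiac muscle genes, led by Myl7, summed to 98.8, 1873 and 146 FPKM in the PBS libraries, to 1275, 923, 1495 and 1373 FPKM in the OVA/LPS/Vehicle libraries and to 947, 2214, 602 and 2547 FPKM in the OVA/LPS/GGsTop libraries. The OVA/LPS/GGsTop libraries thus had the same order for heart and for fat, and PBS 2 was the highest PBS library for both. The orders parted in PBS 1, the lowest library for heart, where Ucp1 was at 57.4 FPKM, and in OVA/LPS/Vehicle 12, the richest in fat. As a description over the 11 libraries, the median Pearson correlation of log2(FPKM + 1) with Adipoq was 0.56 for the 9 cardiac genes tested and 0.79 for the 6 cartilage genes, against 0.02 for all genes. It was 0.54 for immature thymocyte genes, 0.51 for airway epithelial genes, 0.38 for thyroid and parathyroid genes and 0.35 for skeletal muscle genes. For smooth muscle, mesothelium and alveolar macrophages it was 0.12, 0.04 and −0.16, and it was −0.62 for alveolar epithelium and −0.68 for endothelium. Thyroid and parathyroid genes, led by Tg, summed to 98.0, 267 and 538 FPKM in OVA/LPS/Vehicle 12, 34 and 56 and to 2.07 FPKM or less in all other libraries, OVA/LPS/Vehicle 78 included, where the fat genes summed to 484 FPKM. The immature thymocyte genes, led by Cd1d1, stood at 58.1 FPKM in OVA/LPS/Vehicle 12, the library richest in fat, and between 7.88 and 16.1 FPKM elsewhere. Cd1d1 itself varied little, from 6.41 to 13.4 FPKM over all libraries. Rag1 and Dntt were at 8.53 and 13.8 FPKM in OVA/LPS/Vehicle 12 and at no more than 0.0976 and 0.301 FPKM elsewhere. In the 10 skeletal muscle genes, led by Ckm, the highest sum was 159 FPKM in OVA/LPS/Vehicle 34.

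Endothelial genes, led by Cldn5, summed to 2514 FPKM in PBS 3, the highest of all libraries, where Fabp4 was lowest at 4.08 FPKM. The alveolar epithelial genes, led by Sftpc, were also highest in PBS 3, at 16313 FPKM. Smooth muscle genes, led by Acta2, summed to between 469 and 1148 FPKM, mesothelial genes, led by Krt19, to between 89.4 and 203 FPKM, and airway epithelial genes, led by Scgb1a1, to between 31638 and 54429 FPKM. Alveolar macrophage genes, led by Chil3, were between 176 and 253 FPKM in PBS libraries and between 220 and 961 FPKM in the others. This sum mostly followed Chil3 itself, at 44.7 to 72.7 FPKM in PBS libraries and 131 to 735 FPKM in the others. The other genes of the list did not all rise, with Siglecf at 5.60 to 7.37 and 1.91 to 8.79 FPKM and Plet1 at 5.83 to 10.7 and 10.8 to 17.8 FPKM. What part any of these tissues had in the fat gene levels was not tested.

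**Figure D4:**
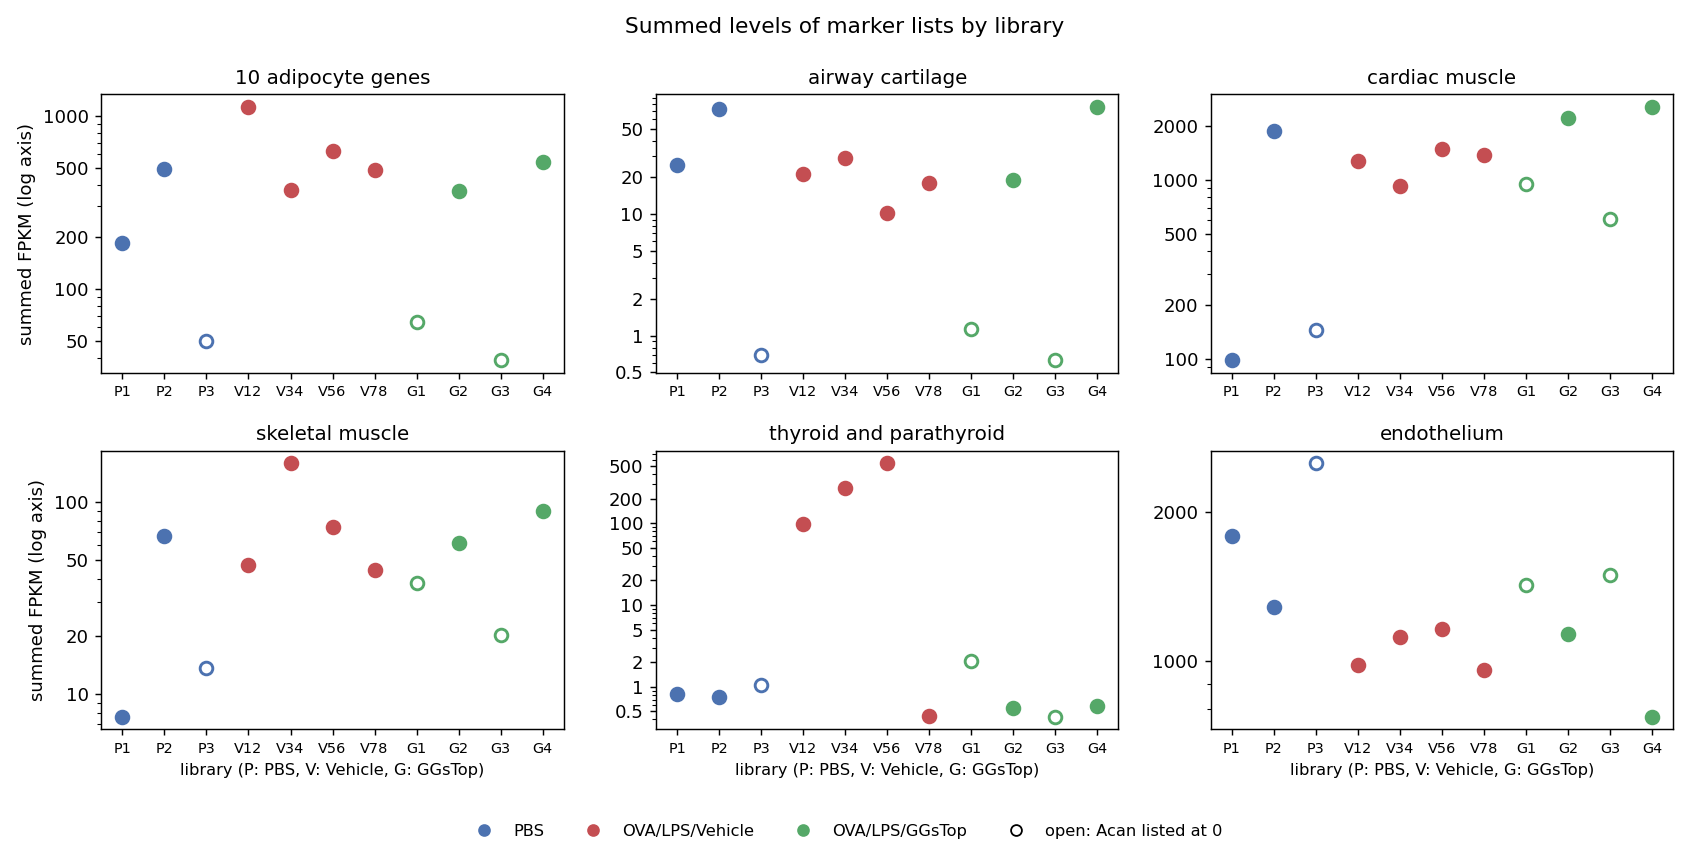
Summed FPKM, on a log axis, of the 10 adipocyte genes and of 5 marker lists of other tissues in each of the 11 libraries, with open points where Acan was listed at 0. The 3 open points are lowest for the adipocyte genes, at 38.8 to 64.7 FPKM, and for cartilage, at 0.631 to 1.14 FPKM, but not for cardiac muscle, where PBS 1 is lowest at 98.8 FPKM.

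As a description over libraries that share their groups and tissue mix, the Pearson correlation of log2(FPKM + 1) with Adipoq was 0.994 for Car3, an abundant carbonic anhydrase of fat and muscle, 0.993 for Plin1, 0.99 for Thrsp, a regulator of fat synthesis, 0.985 for Gpd1, 0.985 for Fabp4, 0.984 for the gap junction gene Gja1, 0.982 for Cidea and 0.980 for Tmem45b. Car3 ranged from 7.79 FPKM in the lowest library to 473 FPKM in the highest. Closest to Ucp1 were Dio2 (0.978), Pck1 (0.976), Otop1 (0.967), Gpd1 (0.951) and Fabp4 (0.943), of which Dio2, the deiodinase that activates thyroid hormone, and Otop1 are enriched in brown fat. A correlation above 0.9 with Adipoq was found for 20 of the 73 other adipocyte genes tested (27.4%) and for 144 of 14003 genes in all (1.03%). These 20 were spread unevenly, since triglyceride synthesis had 9 of 16 and brown fat genes 7 of 15, but other secreted genes 0 of 10 and adipokine receptors 0 of 5.

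Beyond the 10 genes, 82 genes of the adipocyte programme were taken in 7 lists, and 73 passed the minimum mean of 0.5 FPKM. In OVA/LPS/Vehicle against PBS, 12 of the 73 (16.4%) were called higher by limma, near the 15.9% of all genes, and 7 (9.59%) lower, against 22.1% of all genes. This split depended on the scaling, since with the same total FPKM in each library 7 were higher and 12 lower, against 8.8% and 32.6% of all genes, and the median of all genes moved from −0.01 to −0.15. With no minimum level 5 of 82 (6.1%) were higher and 8 (9.76%) lower, against 11.1% and 15.9% of all genes. Among 15 brown fat genes tested, 5 were higher (33.3%, against 15.9% of all genes), 0 lower and 10 did not pass, with a list median of 0.94. With no minimum level 2 of 19 were higher (10.5%, against 11.1% of all genes), with a list median of 0.59. After the GC correction 4 of 15 were higher (26.7%, against 7.88% of all genes). With the same total FPKM it was also 4 (26.7%, against 8.8%), and with the same median FPKM 6 (40%, against 17.9%). Gk, a glycerol kinase of brown fat, stood at 2.22 ± 0.98 FPKM (SD, n = 3) in PBS and 6.74 ± 1.01 FPKM (SD, n = 4) in OVA/LPS/Vehicle libraries, a rise of 1.31 log2 units (SE 0.21, limma adjusted p = 0.00365). Its levels did not overlap, with 3.05, 2.46 and 1.14 FPKM in PBS and 5.93 FPKM or more in each OVA/LPS/Vehicle library. After the GC correction its rise was 0.81. Slc27a2, a fatty acid transporter and acyl-CoA synthetase, rose by 1.29 (SE 0.43, limma adjusted p = 0.0341). Cox7a1, a mitochondrial subunit of heart, muscle and brown fat, and Fabp3, the heart fatty acid carrier, rose by 2.33 (SE 0.72) and 1.98 (SE 0.67), with limma adjusted p of 0.0277 and 0.0365. Without PBS 3 the limma adjusted p was 0.165 for Slc27a2, 0.140 for Cox7a1 and 0.164 for Fabp3, so that none of the 3 passed. Fabp3 was lowest in PBS 1, at 15.2 FPKM, the library with the least cardiac RNA, and the part of heart tissue was not tested. Cox8b, another subunit of this kind, stood at 2.16 (SE 0.88, limma adjusted p = 0.0706). Elovl3 was the fifth gene called, named after its values were seen, and it did not pass without PBS 3 either.

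Fatty acid uptake had 3 of 10 genes higher (30%) and 1 lower (10%), against 15.9% and 22.1% of all genes. After the GC correction 0 were higher and 1 lower, against 7.88% and 12.9% of all genes. With the same total FPKM 2 were higher (20%) and 1 lower (10%), against 8.8% and 32.6% of all genes. Lpl, the lipase that frees fatty acids from lipoproteins, rose by 1.22 (SE 0.36, limma adjusted p = 0.0234) and the acyl-CoA synthetase Acsl1 by 1.17 (SE 0.36, limma adjusted p = 0.0254), and neither passed without PBS 3, at limma adjusted p of 0.118 and 0.127. Cd36, a fatty acid receptor that capillary endothelium and macrophages also carry, rose by 0.49 (SE 0.18, limma adjusted p = 0.0491) but stood at −0.090 after the correction for GC content. Gpihbp1, the capillary anchor of Lpl, stood at −0.52 (SE 0.31, limma adjusted p = 0.2). Slc7a10, an amino acid transporter, fell by 1.33 (SE 0.22, limma adjusted p = 0.00375). Within PBS it ran against Adipoq, at 40.4 FPKM in PBS 3, which had the least Adipoq, and 26.3 FPKM in PBS 2, which had the most. Among 6 transcription factors tested, Pparg, the master regulator of fat cells, rose by 0.76 (SE 0.25, limma adjusted p = 0.0352), as did Ppargc1a, named after its values were seen, whereas its partner Rxra fell by 0.41 (SE 0.10, limma adjusted p = 0.0127) and Prdm16, a factor of brown fat, by 0.31 (SE 0.10, limma adjusted p = 0.0345). Pparg did not pass in 8 of the 19 other settings, among them without PBS 3 (limma adjusted p = 0.157). With the same total FPKM 0 of the 6 were called higher, against 8.8% of all genes, and after the GC correction 1 was (16.7%, against 7.88%). After the GC correction Rxra stood at −0.082 (limma adjusted p = 0.494) and Prdm16 at −0.15 (limma adjusted p = 0.286). Cebpa, also made by lung epithelium, stood at −0.12 (SE 0.14, limma adjusted p = 0.513).

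Of 11 genes of lipolysis and the droplet, the glycerol channel Aqp7 rose by 1.29 (SE 0.47, limma adjusted p = 0.0475), and G0s2, an inhibitor of the lipase Pnpla2, fell by 0.59 (SE 0.18, limma adjusted p = 0.0253). Aqp7 did not pass in 12 of the 19 other settings, where its difference ran from 0.84 to 2.67. G0s2 did not pass in 6 of 19 and stood at −0.29 (limma adjusted p = 0.188) after the GC correction. Pnpla2 itself stood at −0.10 (SE 0.28, limma adjusted p = 0.791). None of 16 triglyceride synthesis genes passed, although their median was 0.55, and the desaturase Scd1 was at 268 ± 243 FPKM (SD, n = 3) in PBS and 459 ± 141 FPKM (SD, n = 4) in OVA/LPS/Vehicle (limma adjusted p = 0.276) and the fatty acid synthase Fasn at 0.20 (SE 0.73, limma adjusted p = 0.843). In the same limma fit 0 of the 16 had an unadjusted p under 0.05, against 49.6% of all genes in either direction. Among 10 other secreted genes, Retnla rose by 5.98 (SE 0.42, limma adjusted p = 0.000192), Nnat fell by 0.82 (SE 0.16, limma adjusted p = 0.00494) and Angptl4 by 0.62 (SE 0.18, limma adjusted p = 0.0208). Nnat, Angptl4 and G0s2 were each highest in PBS 3, the PBS library with the least Adipoq, at 14.3, 32.6 and 107 FPKM. Retnla is made by alternatively activated macrophages and lung epithelium as well as by fat. It was at 36.7 to 74.8 FPKM in PBS libraries. In OVA/LPS/GGsTop 3, where Adipoq was lowest, it was at 1188 FPKM, the lowest of the OVA/LPS libraries, against 2093 to 4764 FPKM in the others. Which cells made it was not tested. Rbp4, a retinol carrier, stood at 0.35 (SE 0.34, limma adjusted p = 0.416). None of the 5 receptor genes was called, 2 had an unadjusted p under 0.05 in limma, and Cap1 and Adipor1 stood at −0.25 (SE 0.10, limma adjusted p = 0.0620) and −0.10 (SE 0.09, limma adjusted p = 0.373).

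In OVA/LPS/GGsTop against OVA/LPS/Vehicle, 2 of the 73 genes (2.74%) were higher and 2 lower, against 6.9% and 1.81% of all genes. None of these calls was left in limma after the GC correction, where 0.243% of all genes were still called higher and 0.157% lower. None was left without OVA/LPS/Vehicle 34 or 56 or OVA/LPS/GGsTop 1 or 3 either, where 0.171% to 0.736% of all genes were called. Gk fell by 1.04 (SE 0.19, limma adjusted p = 0.0198) to 2.79 ± 0.63 FPKM (SD, n = 4), with differences of −1.13 to −0.95 when each library was left out and −0.72 after the GC correction. Cd36 fell by 0.74 (SE 0.16, limma adjusted p = 0.0283), and stood at −0.37 after the GC correction (limma adjusted p = 0.108). Every OVA/LPS/GGsTop library had less Gk than every OVA/LPS/Vehicle library, at 2.28, 3.53, 2.24 and 3.09 FPKM. Within the group, OVA/LPS/GGsTop 1 and 3, the libraries lowest in fat genes, were also lower in Gk than OVA/LPS/GGsTop 2 and 4. Between groups Gk did not follow Adipoq. With Adipoq at 28.7 and 27.9 FPKM, Gk was at 3.09 FPKM in OVA/LPS/GGsTop 4 and 5.93 FPKM in OVA/LPS/Vehicle 78. With Adipoq at 33.2 and 22.1 FPKM, it was at 2.46 FPKM in PBS 2 and 6.46 FPKM in OVA/LPS/Vehicle 34. Prdm16 rose by 0.39 (SE 0.10, limma adjusted p = 0.0350), and stood at 0.25 after that correction (limma adjusted p = 0.179). The median was −0.91 for brown fat genes and −0.64 for triglyceride synthesis. All 11 genes of lipolysis and the droplet had negative values, but 10 of 11 with the same total FPKM. Of these 0 passed in limma and 2 had an unadjusted p under 0.05, against 11% of all genes in this direction. Among 15 brown fat genes 8 were lower at an unadjusted p under 0.05 in limma, but only Gk was called. For 4 of the 15 the groups did not overlap in this direction, against 12.4% of all genes. Of 16 triglyceride synthesis genes 2 were lower at that unadjusted p.

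In OVA/LPS/GGsTop against PBS, 1 of the 73 genes (1.37%) was higher and 2 (2.74%) were lower, against 2.06% and 0.821% of all genes. Retnla was higher by 5.62 (SE 0.42, limma adjusted p = 0.000266). G0s2 and Nnat were lower by −0.82 (SE 0.18, limma adjusted p = 0.0379) and −0.78 (SE 0.16, limma adjusted p = 0.0272). The replicate number was also fitted as a block, with these groups alone. OVA/LPS/GGsTop 4 has no partner there and drops out of the difference. In that fit 1 gene was called (1.37%, against 0.678% of all genes) in place of 3. The count was also 1 without OVA/LPS/GGsTop 4, against 1.43% of all genes, and with these groups alone and no block, against 0.278%. The median difference was 0.03 for brown fat genes, with the sign turned at −0.032 under the same total FPKM and −0.0076 under the same median FPKM, and −0.08 for triglyceride synthesis.

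The calls among adipocyte genes, like those among all genes, depended on the libraries and on the correction for GC content. For OVA/LPS/Vehicle against PBS the count was 19 of 73 (26%), where 38% of all genes were called. Without the 3 libraries with Acan at 0 it was 6 (8.22%), against 23.4% of all genes, and without PBS 3 alone it was 5 (6.85%), against 21.9%. Pparg, Angptl4, Cd36, G0s2, Lpl, Acsl1, Slc27a2, Aqp7, Fabp3, Prdm16 and Cox7a1 were among those that no longer passed in limma without PBS 3. Between the OVA/LPS groups, Prdm16 did not pass in 10 of 20 other settings, Cd36 in 8 and Gk in 5. In OVA/LPS/GGsTop against PBS, G0s2 did not pass in 9 of 21 and Nnat in 8. The deviation from the gene means changed by 0.53 log2 units per 10 points of GC content in PBS 3, by −0.19 to −0.26 in all of OVA/LPS/Vehicle and by 0.05 to 0.11 in the remaining libraries. After a correction for GC content the count was 9 (12.3%) between OVA/LPS/Vehicle and PBS, against 20.8% of all genes, and 0 between both OVA/LPS groups, against 0.4% of all genes, while the medians of the 10 genes were 1.71 and −1.62 in these comparisons.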

How the data were processed

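RNA of the airway was sequenced in 11 libraries, and the authors deposited FPKM for 21899 genes with 1 column per library. The processing notes of the submitters name cutadapt 1.15, HISAT2 2.0.5, HTSeq 0.9.1 and mm39, without their roles. Of these, 21846 had an identifier in GENCODE M21 (GRCm38). With the exon lengths of M21, FPKM gave whole fragments (within 0.02 fragment, scaled) for 98.5% to 98.6% of genes in each library, and 1 fragment on 1 kb was worth 0.0537 to 0.0689 FPKM, so that low values rest on few fragments. Coordinates are those of M21 on GRCm38.

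Values were set on a log2 scale as log2(FPKM + 1). The 14004 genes that averaged 0.5 FPKM or more, among them all 10 adipocyte genes, entered a fit of all groups in limma 3.58.1 (R 4.3.3) with a mean-variance trend, two-sided p-values and Benjamini-Hochberg adjustment over the whole table, with calls made below an adjusted p of 0.05. The 10 genes, the 7 adipocyte lists and the 11 marker lists were chosen with earlier results of these data known. Genes named are the 10 members, the 2 most abundant and up to 3 called genes of each list and comparison, those most correlated with Adipoq (8) or Ucp1 (5), and the most abundant and absent genes of each marker list. Elovl3, Ppargc1a and Matn1 and other single values named outside this rule were picked after their values were seen. The result of 1 gene is not reported, though counts over the lists include it.

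PBS and OVA/LPS/GGsTop libraries share the numbers 1 to 3 in their labels. Deviations from the group means correlated over genes by 0.367, 0.427 and 0.428 within same-numbered pairs, which met the limit of 0.1 set for a pairing by number. Some pairs with unlike numbers met it too. PBS 1 with OVA/LPS/GGsTop 3 gave 0.457, PBS 3 with OVA/LPS/GGsTop 1 gave 0.223 and PBS 2 with OVA/LPS/GGsTop 4 gave 0.637, while the remaining pairs were negative. The correlations thus do not show that the numbers mark a pairing. Because the limit was met, a fit with the replicate number as a block is given where it changed a count. Other settings tried were no minimum or one of 1 FPKM, a pseudocount of 0.1, equal medians or equal totals of FPKM, a robust fit, a fit with no trend, array weights, a correction for GC content (natural spline, 5 degrees of freedom), voom on the recovered fragments, only the 2 groups compared, each library left out in turn, and, added after seeing the data, removal of the libraries with Acan at 0 and the block with the GC correction. The fit was tested on simulated data, with an outcome that is not given here and that no result rests on. Descriptions and figures were made with numpy 2.4.6, pandas 2.3.3 and matplotlib 3.10.9 under Python 3.11.15.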

Additional observations from a re-analysis of the deposited data

Results flagged for a closer look

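Among 35 named genes, a library stood far from the other 3 of its group in 3 of 70 groups of 4, where chance gives about 1 in 20. Lep was at 3.55 FPKM in OVA/LPS/GGsTop 4 and between 0.0567 and 0.555 FPKM in the other libraries of that group. Pnpla2, the lipase that begins triglyceride breakdown, was at 104.9 FPKM in OVA/LPS/Vehicle 12 and between 50.0 and 54.2 FPKM in the others. Cd36 was at 334.6 FPKM in OVA/LPS/Vehicle 78 and between 389.7 and 393.6 FPKM in the others. Groups of 3 were not examined.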

How the results depend on the processing

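The medians of the 10 adipocyte genes kept their direction for OVA/LPS/Vehicle against PBS (0.70 to 2.26) and between both OVA/LPS groups (−1.99 to −0.14) under all alternatives run, whereas for OVA/LPS/GGsTop against PBS they ran from −0.81 to 0.77. The count of the other adipocyte genes called for OVA/LPS/Vehicle against PBS was 19 (26%, against 38% of all genes). It was 9 after the GC correction (12.3%, against 20.8%) and 6 without the libraries with Acan at 0 (8.22%, against 23.4%). With each library left out it was 5 to 28, lowest without PBS 3 (6.85%, against 21.9%) and highest without PBS 2 (38.4%, against 46%). Between both OVA/LPS groups it was 4 (5.48%, against 8.71% of all genes), and 7 with the same total FPKM (9.59%, against 15.6%). It was 21 with array weights (28.8%, against 37.2% of all genes) and 10 with only the 2 groups compared (13.7%, against 25.2%). After the GC correction it was 0, against 0.4% of all genes. With each library left out it was 0 to 4. It was 0 without OVA/LPS/Vehicle 34 or 56 or without OVA/LPS/GGsTop 1 or 3, against 0.171% to 0.736% of all genes. For OVA/LPS/GGsTop against PBS it was 3 (4.11%, against 2.88% of all genes), and 10 with array weights (13.7%, against 18.3%). It was 1 (1.37%) without the libraries with Acan at 0, against 0.8% of all genes, and with only the 2 groups compared, against 0.278%. With each library left out it was 1 to 8, highest without PBS 2 (11%, against 11.4%). Under the replicate block, in which OVA/LPS/GGsTop 4 has no partner, it was 1 (1.37%, against 0.678% of all genes). It was also 1 without that library, against 1.43% of all genes. Under the replicate block with the GC correction it was 5 (6.85%, against 2.56% of all genes). The median of the 10 genes was −0.60 under the block and −0.57 under the block with the GC correction. No block was fitted for the comparisons with OVA/LPS/Vehicle, which shares no number with the other groups. The difference of Cd36 for OVA/LPS/Vehicle against PBS was −0.090 after the GC correction, opposite to its value in the deposited FPKM. The cause of these shifts was not tested, apart from the fewer libraries in those fits that leave some out. Gk, Nnat, Slc7a10 and Retnla for OVA/LPS/Vehicle against PBS were called under every alternative run.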
